A study of Mus musculus with 6 samples.

Results

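Collagen genes were taken from the deposited gene count table as every protein-coding gene whose symbol has the form Col, a type number, the letter a and a chain number. The rule used names and biotype, not expression, and found 44 of the 56748 genes in the table. They comprise 11 fibrillar collagens, 8 basement membrane collagens (*Col4a1* to *Col4a6*, *Col15a1* and *Col18a1*) and 25 collagens of other types. The libraries were made from heart tissue RNA of 3 Pontin cTG mice and 3 WT littermates, and each mouse gave 1 library. The labels do not say which part of the heart was used. All 6 mice received angiotensin II (Ang-II) for 14 days from a mini-osmotic pump, at 1.5 mg per kg body weight a day, so both groups are Ang-II-treated and no untreated heart was compared here. They were male C57Bl/6 mice aged 10 weeks when the infusion started. The transgene carries human Pontin cDNA with a flag tag and is driven in cardiomyocytes by the αMHC promoter, whereas most collagen mRNA in a heart comes from other cells. The question behind the comparison is whether cardiomyocyte overexpression of Pontin alters collagen expression in hearts exposed to Ang-II, since collagen I mRNA and fibrosis were readouts of the study. The study reported reduced fibrosis in Pontin cTG mice after Ang-II, from fibrotic area and collagen I expression. Those assays, and the numbers of mice in them, differ from the RNA-seq used here.

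Collagens are extracellular proteins whose chains wind around each other in a triple helix built on a glycine repeat. Fibrillar collagens, mainly types I and III with type V as a regulator of fibril diameter, form the interstitial fibres of the myocardium and are made by fibroblasts, which make more of them after Ang-II. Basement membrane collagens form sheets around cardiomyocytes and capillaries, and type IV is laid down largely by endothelial cells, mural cells and fibroblasts. The other types decorate fibrils, link them to cells or form short networks. In RNA of heart tissue, fewer cells of a type and less RNA per cell cannot be told apart.

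WT libraries held 12436822 to 13194038 counts and Pontin cTG libraries 14584102 to 16888124. *Ruvbl1*, the mouse gene for Pontin, had normalised counts (counts scaled to the TMM-adjusted library size) of 216, 221 and 217 in the WT hearts and 249.9, 250.02 and 239.95 in the Pontin cTG hearts, given here and below in the order of replicates 1 to 3. The groups did not overlap, where 4.7% of all genes tested were higher in Pontin cTG hearts without overlap. The log2 fold change was 0.18 ± 0.12 (SE, edgeR adjusted p = 0.999), and reads of the human cDNA were not told apart from reads of the mouse gene. At the protein level, the study reported overexpression of Pontin in Pontin cTG hearts by Western blot. Pontin cTG replicate 2 stood apart from the others: on the first principal component, which held 48.6% of the variance, it scored 50.9 against -23.1 to 16.2 in the remaining 5 libraries. Cardiomyocyte markers were abundant in every library, and summed fibroblast markers ranged from 1544 to 1929 CPM (counts scaled to library size) in WT and from 1678 to 2035 CPM in Pontin cTG hearts. Of the 4 atrial markers, *Myl7* and *Sln* had 0 to 6 counts per library, *Myl4* had 8 to 51 and *Nppa* had 416 to 9011, and the adipocyte markers *Adipoq*, *Plin1* and *Cidec* had 0 to 4.

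No collagen gene passed the test for a difference between the genotypes. Of the 44 collagen genes, 29 passed the filter on low counts, and 0 of these passed an adjusted p of 0.05 in edgeR's quasi-likelihood test, against 0.0% of the 13888 genes tested. At an unadjusted p under 0.05, 1 collagen was lower and 0 were higher in Pontin cTG hearts, where 1.03% and 1.02% of all genes tested were lower and higher. DESeq2 also called 0 collagens at an adjusted p of 0.05, and 1 at an unadjusted p under 0.05, where 217 of the 25636 genes in that fit were called. The fitted log2 fold change was above 0 for 16 collagens and below 0 for 13, with a median of 0.024, and the median over all genes tested was 0.0013. By group, 5 of 8 fibrillar, 3 of 8 basement membrane and 8 of 13 other collagens had values above 0, with medians of 0.058, -0.087 and 0.043. In what follows a log2 fold change is Pontin cTG over WT and stands with its SE, a mean stands with its SD over 3 mice, and the adjusted p of every tested collagen was 0.999 in edgeR.

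The share of each library held by collagen mRNA showed the spread directly. All 44 collagens together took 0.226%, 0.281% and 0.233% of the counts in the WT hearts. They took 0.258%, 0.362% and 0.153% in the Pontin cTG hearts. Both the highest and the lowest of the 6 shares were thus Pontin cTG hearts, and the difference between the group means of 0.247% ± 0.0301 and 0.258% ± 0.105 (SD, n = 3 each) gave p = 0.8 in a two-sided exact permutation test (where 3 mice per group cannot give a p under 0.1). Fibrillar collagens took 0.0716%, 0.128% and 0.0684% in WT and 0.0825%, 0.132% and 0.0514% in Pontin cTG hearts (exact permutation p = 1). WT replicate 2 and Pontin cTG replicate 2 were nearly alike in this share and the other 4 hearts were below them. Basement membrane collagens took 0.120%, 0.109% and 0.131% in WT and 0.135%, 0.179% and 0.0785% in Pontin cTG hearts (exact permutation p = 0.7). Here WT replicate 2 was the lowest WT heart, while Pontin cTG replicate 2 stayed the highest of 6. Without Pontin cTG replicate 2 the difference in the share of all collagens turned from 0.0111 to -0.0412 percentage points.

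**Figure D1:**
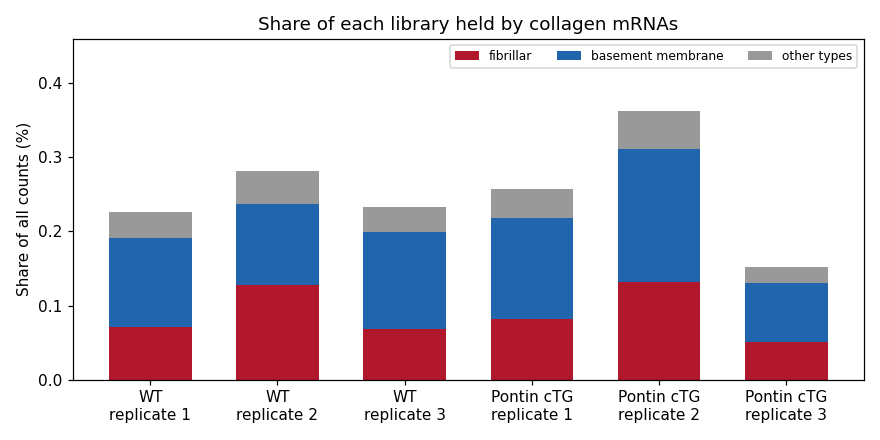
Stacked bars of the percentage of all counts held by fibrillar, basement membrane and other collagens in each of the 6 libraries. The Pontin cTG bars reach from 0.153% in replicate 3 to 0.362% in replicate 2 and enclose the WT range of 0.226% to 0.281%.

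Per kilobase of the gene length given in the table, the basement membrane chains *Col4a1* and *Col4a2* were the most abundant collagen mRNAs in 5 of the 6 hearts. Normalised counts per kilobase in WT hearts were 1118 ± 127 (SD, n = 3) for *Col4a1* and 877 ± 99.6 for *Col4a2*, the pair of chains of the common type IV network. Next came *Col3a1* at 634 ± 311, *Col6a1* at 328 ± 24.3, *Col1a1* at 315 ± 66.2, *Col15a1* at 288 ± 21.5, *Col1a2* at 193 ± 50.5, *Col6a2* at 184 ± 5.43 and *Col8a1* at 109 ± 14.3. Several neighbours in this order lay within each other's spread: *Col6a1*, *Col1a1* and *Col15a1* overlapped, as did *Col1a2* and *Col6a2*, and in WT replicate 2 *Col3a1* at 992 was the most abundant collagen, just above *Col4a1* at 978. Basement membrane chains made up 56.7%, 43.8% and 60.1% of all collagen counts per kilobase in WT and 56.1%, 53.6% and 55.1% in Pontin cTG hearts. *Col3a1* alone made up 10.97%, 19.9% and 9.69% in WT and 10.4%, 12.9% and 12.3% in Pontin cTG hearts. WT replicate 2 was the heart with the most fibrillar make-up, at 38.4% against 24.1% to 30.1% elsewhere, and the fibrillar share of the collagen mRNA gave p = 1 between the groups in the exact permutation test.

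**Figure D2:**
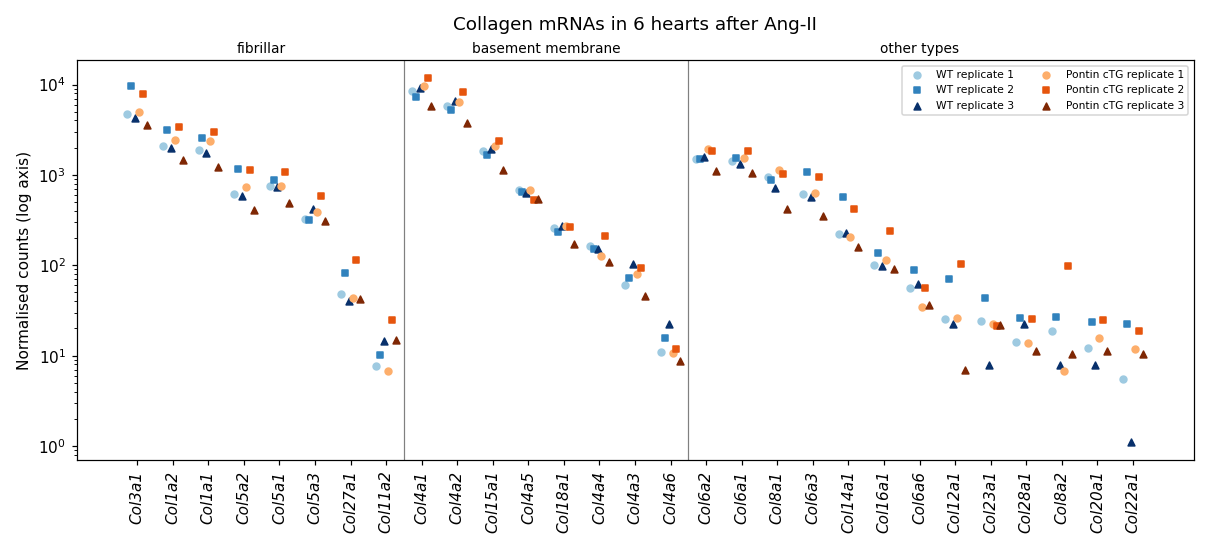
Normalised counts (log axis) of the 29 tested collagens in each of the 6 libraries, ordered within fibrillar, basement membrane and other types. Blue marks are WT and orange to brown marks are Pontin cTG hearts, and Pontin cTG replicate 3 is the lowest of 6 for 21 of the 29 genes.

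*Col1a1* and *Col1a2* encode the chains of type I collagen, the main fibre of cardiac scar, and *Col1a1* was the collagen most directly tied to the study's readout. *Col1a1* (ENSMUSG00000001506, GRCm38 chr11:94936224-94953042, plus strand) had normalised counts of 1882, 2559.8 and 1751 in WT and 2393, 3019.95 and 1209 in Pontin cTG hearts. The Pontin cTG hearts included both the highest and the lowest value, and the means of 2064 ± 434 and 2207 ± 919 (SD, n = 3 each) gave a log2 fold change of 0.097 ± 0.30 (SE, edgeR adjusted p = 0.999). The sign of this value rested on single hearts. Leaving out Pontin cTG replicate 2 gave -0.20, and leaving out Pontin cTG replicate 3 gave 0.39. *Col1a2* (ENSMUSG00000029661, chr6:4504814-4541544, plus strand) had 2086, 3121 and 1989 in WT and 2443, 3371 and 1475 in Pontin cTG hearts. The 6 hearts stood in the same order for *Col1a2* as for *Col1a1*, and the log2 fold change was 0.019 ± 0.29.

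The upstream sequence of *Col1a2* is shown because it is the type I chain with an entry in the RefSeq promoter table (GRCm38.p6). Of the 250 bases upstream of its RefSeq start, the stretch that no annotated exon covers is chr6:4505370-4505492 on the plus strand, 123 bases. The stretch lies inside the gene by the GENCODE position given above, which starts at 4504814, because RefSeq places the start further downstream. Capitals mark GGGCGG, the core of the GC box bound by Sp-family factors, which occurs 2 times, 205 and 188 bases upstream of the start.
Col1a2: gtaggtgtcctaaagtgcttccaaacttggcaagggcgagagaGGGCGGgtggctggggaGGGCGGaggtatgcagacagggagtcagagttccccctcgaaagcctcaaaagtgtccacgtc

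*Col3a1*, the chain of type III collagen that forms fine fibres beside type I, was the most variable of the abundant collagens among WT hearts. *Col3a1* (ENSMUSG00000026043, chr1:45311538-45349706, plus strand) had normalised counts of 4696, 9735 and 4234 in WT and 4984, 7887 and 3567 in Pontin cTG hearts. WT replicate 2 was 2.18 times the mean of the other WT hearts and was the highest of 6. The means of 6222 ± 3051 and 5479 ± 2202 gave a log2 fold change of -0.18 ± 0.37, which became 0.29 when WT replicate 2 was left out and -0.54 when Pontin cTG replicate 2 was. The *Col3a1* upstream window (chr1:45311288-45311537, plus strand, 250 bases) was chosen for printing after its values were seen. Capitals mark TATAAA, 117 bases upstream of the start, and CATTCC, the reverse complement of the TEAD motif GGAATG, 168 bases upstream. TEAD factors are the DNA-binding partners of YAP in the Hippo pathway.
Col3a1: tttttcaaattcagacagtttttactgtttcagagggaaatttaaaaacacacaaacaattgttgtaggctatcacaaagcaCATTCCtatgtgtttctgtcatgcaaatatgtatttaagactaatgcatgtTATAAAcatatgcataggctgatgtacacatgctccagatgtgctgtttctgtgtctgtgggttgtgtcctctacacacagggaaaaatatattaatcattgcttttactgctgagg

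Both strands of the 250-base upstream windows were searched for 4 motifs, and 35 of the 44 collagens had a window in the table. GGAATG or its reverse complement occurred in 4 of the 35 (*Col18a1*, *Col20a1*, *Col3a1* and *Col6a2*), or 11.4%, against 14.4% of the 27025 genes with a window. TATAAA occurred in 14.3% of the collagen windows and in 14.3% of all windows, and CCAAT in 37.1% and 37.5%. GGGCGG occurred in 21 of the 35, or 60.0%, against 35.4% of all windows. These matches describe the letters in the windows and are not binding sites.

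Type V collagen initiates and limits type I fibrils. *Col5a1* had normalised counts of 749, 867 and 725 in WT and 759.6, 1073 and 484 in Pontin cTG hearts, with a log2 fold change of -0.015 ± 0.25. *Col5a2*, which lies next to *Col3a1* on chromosome 1 on the opposite strand with 24614 bases between them, had 608, 1152 and 584 in WT and 727, 1123 and 413 in Pontin cTG hearts (-0.049 ± 0.37). Like *Col3a1*, *Col5a2* was highest of 6 in WT replicate 2, at 1.93 times the mean of the other WT hearts, whereas *Col5a1* was only 1.18 times. *Col5a3*, a further type V chain, had the smallest p of the fibrillar group (unadjusted p = 0.280 in edgeR). Its normalised counts were 328, 314 and 424 in WT and 384, 591 and 311 in Pontin cTG hearts, a log2 fold change of 0.27 ± 0.24 that was -0.034 without Pontin cTG replicate 2. Of the low fibrillar collagens, *Col27a1* ranged from 40.2 to 83.0 in WT and from 42.4 to 114.7 in Pontin cTG hearts, and *Col11a2* from 7.71 to 14.5 and from 6.83 to 24.8. For both, Pontin cTG replicate 2 held the highest value and the groups overlapped.

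The type IV chains of the basement membrane are encoded in head-to-head pairs. *Col4a1* (ENSMUSG00000031502, chr8:11198423-11312826, minus strand) had normalised counts of 8582, 7298 and 9146 in WT and 9524, 11681 and 5722 in Pontin cTG hearts, with means of 8342 ± 947 and 8976 ± 3017 and a log2 fold change of 0.11 ± 0.24. *Col4a2* (ENSMUSG00000031503, chr8:11312805-11449287, plus strand) had 5742, 5178 and 6491 in WT and 6463, 8281 and 3763 in Pontin cTG hearts (0.088 ± 0.26). The order of the 6 libraries was the same for both chains except between WT replicate 3 and Pontin cTG replicate 1, which were close. The annotated genes overlap by 22 bases, where reads of the strands cannot be told apart unless the counting used strand. Without Pontin cTG replicate 2 both fold changes were below 0, at -0.13 and -0.18.

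The remaining type IV chains were far lower. *Col4a5*, a chain mutated in Alport syndrome, had 688, 639 and 627 in WT and 681, 529 and 537 in Pontin cTG hearts, the narrowest range of any tested collagen at 1.30-fold from lowest to highest. Its log2 fold change of -0.16 ± 0.14 (unadjusted p = 0.271 in edgeR) stayed below 0 when any 1 library was left out, between -0.28 and -0.099. *Col4a6*, its neighbour on chromosome X, had 11.01, 15.7 and 22.4 in WT and 10.7, 11.99 and 8.66 in Pontin cTG hearts (-0.64 ± 0.41, unadjusted p = 0.157). The groups overlapped, and the counts behind these values were 10 to 20 per library. *Col4a4* had 163, 151 and 152 in WT, a range smaller than the spread of 109.1 to 209.8 in Pontin cTG hearts, and *Col4a3* ranged from 60.6 to 102.8 in WT and from 45.9 to 92.5 in Pontin cTG hearts. Their log2 fold changes were -0.067 ± 0.24 and -0.11 ± 0.31.

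The sequences between the head-to-head starts are shown because each stretch is upstream of both chains of its pair. The starts of *Col4a3* and *Col4a4* are separated by 71 bases (chr1:82586850-82586920, printed on the minus strand in the direction of *Col4a4*), which hold none of the 4 motifs.
Col4a4: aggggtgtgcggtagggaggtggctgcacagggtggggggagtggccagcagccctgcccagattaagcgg
The starts of *Col4a5* and *Col4a6* lie 1308 bases apart. The printed upstream parts are chrX:141475169-141475384 on the plus strand for *Col4a5* (216 bases), with CCAAT in capitals 196 bases upstream, and chrX:141474077-141474326 on the minus strand for *Col4a6* (250 bases), with CCGCCC, the reverse complement of GGGCGG, 21 bases upstream.
Col4a5: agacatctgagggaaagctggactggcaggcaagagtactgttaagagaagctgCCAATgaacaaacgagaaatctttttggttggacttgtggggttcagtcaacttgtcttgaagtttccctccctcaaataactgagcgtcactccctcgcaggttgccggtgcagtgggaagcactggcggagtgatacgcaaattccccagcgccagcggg
Col4a6: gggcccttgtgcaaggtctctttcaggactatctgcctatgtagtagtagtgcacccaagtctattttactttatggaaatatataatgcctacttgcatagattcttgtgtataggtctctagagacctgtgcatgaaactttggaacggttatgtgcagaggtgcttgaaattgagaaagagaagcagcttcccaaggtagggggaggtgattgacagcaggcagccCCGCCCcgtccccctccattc

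*Col15a1* and *Col18a1* encode the multiplexins, basement membrane collagens whose ends are cleaved to restin and endostatin. *Col15a1* had normalised counts of 1858, 1678 and 1946 in WT and 2097, 2380.3 and 1123 in Pontin cTG hearts (0.031 ± 0.25). *Col18a1* had 257, 234 and 275 in WT and 274, 262 and 174 in Pontin cTG hearts (-0.11 ± 0.19). For both genes the WT hearts lay close together and Pontin cTG replicate 3 was the lowest of 6.

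Type VI collagen forms beaded filaments that tie the basement membrane to the interstitium. *Col6a1* had 1427, 1547 and 1335 in WT and 1529.9, 1855 and 1054 in Pontin cTG hearts (log2 fold change 0.043 ± 0.20). *Col6a2*, 85161 bases from *Col6a1* on chromosome 10 and on the same strand, had 1502, 1515 and 1586 in WT and 1931, 1826 and 1108 in Pontin cTG hearts (0.079 ± 0.20). *Col6a3* had 619, 1087 and 576 in WT and 635, 938 and 347 in Pontin cTG hearts (-0.25 ± 0.35), with WT replicate 2 the highest of 6, unlike *Col6a1* and *Col6a2*.

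*Col6a6*, a type VI chain related to the *Col6a3* chain, was the collagen with the smallest p. Its normalised counts were 56.2, 88.6 and 62.6 in WT and 34.2, 55.7 and 36.4 in Pontin cTG hearts, from 35 to 79 counts per library. The lowest WT heart was just above the highest Pontin cTG heart, so the groups did not overlap. The means of 69.1 ± 17.2 and 42.1 ± 11.8 (SD, n = 3 each) gave a log2 fold change of -0.71 ± 0.29 (edgeR unadjusted p = 0.0383, adjusted p = 0.999), and the two-sided exact permutation p was 0.1, the smallest that 3 against 3 allows. It was 1 of 29 tested collagens with groups that did not overlap, where 3.63% of all genes tested were lower and 4.7% higher without overlap, 8.33% together. Leaving out 1 library at a time kept the value below 0, between -0.97 and -0.49, and its adjusted p over all alternatives ranged from 0.855 to 0.9998.

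Type VIII collagen forms short-chain networks, among others in vessel walls. *Col8a1* had 939, 888 and 724 in WT and 1141, 1035 and 419 in Pontin cTG hearts (0.024 ± 0.32). *Col8a2* had 18.7, 26.9 and 7.83 in WT and 6.83, 97.6 and 10.4 in Pontin cTG hearts. Its log2 fold change of 1.11 ± 0.92 was the largest among the tested collagens and rested on a single heart, since Pontin cTG replicate 2 was 11.3 times the mean of the other Pontin cTG hearts, and without it the value was -1.03.

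The FACIT collagens sit on the surface of fibrils, and in all 5 tested members WT replicate 2 was the highest WT heart. *Col12a1* had 25.3, 70.7 and 22.4 in WT and 26.4, 102.7 and 6.93 in Pontin cTG hearts, a 14.8-fold range (0.21 ± 0.80, and -1.26 without Pontin cTG replicate 2). *Col14a1* had 219, 569 and 229 in WT and 206, 422 and 158 in Pontin cTG hearts (-0.37 ± 0.45, and 0.22 without WT replicate 2). *Col16a1* had 101, 136 and 98.4 in WT and 115, 242 and 90.1 in Pontin cTG hearts (0.42 ± 0.35, unadjusted p = 0.261 in edgeR, and -0.13 without Pontin cTG replicate 2). In each of these genes replicate 2 was the highest heart of its own group in both genotypes, and the groups overlapped. *Col20a1* and *Col22a1* were covered by 29 counts or fewer in every library, with log2 fold changes of 0.25 ± 0.50 and 0.50 ± 0.75. *Col22a1* ranged from 1.12 to 22.4 among WT hearts, and its value was 2.00 without WT replicate 2. The transmembrane collagen *Col23a1* (-0.21 ± 0.52) and *Col28a1* (-0.30 ± 0.43) also overlapped between the groups.

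The 15 collagens below the filter had totals of 0 to 56 counts over the 6 libraries, with no single count above 18. *Col9a1* and *Col6a4* had 0 counts in all libraries. The others were *Col2a1*, *Col7a1*, *Col9a2*, *Col9a3*, *Col10a1*, *Col11a1*, *Col13a1*, *Col17a1*, *Col19a1*, *Col24a1*, *Col25a1*, *Col26a1* and *Col6a5*, among them the cartilage collagens of types II, IX, X and XI. *Col25a1* had 9, 6 and 6 counts in WT and 6, 6 and 4 in Pontin cTG hearts, which do not overlap once normalised but are too few for a statement. *Col11a1* had 5 counts in WT replicate 2 and 14 in Pontin cTG replicate 2, against 0 or 1 in each of the other 4 libraries.

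**Figure D3:**
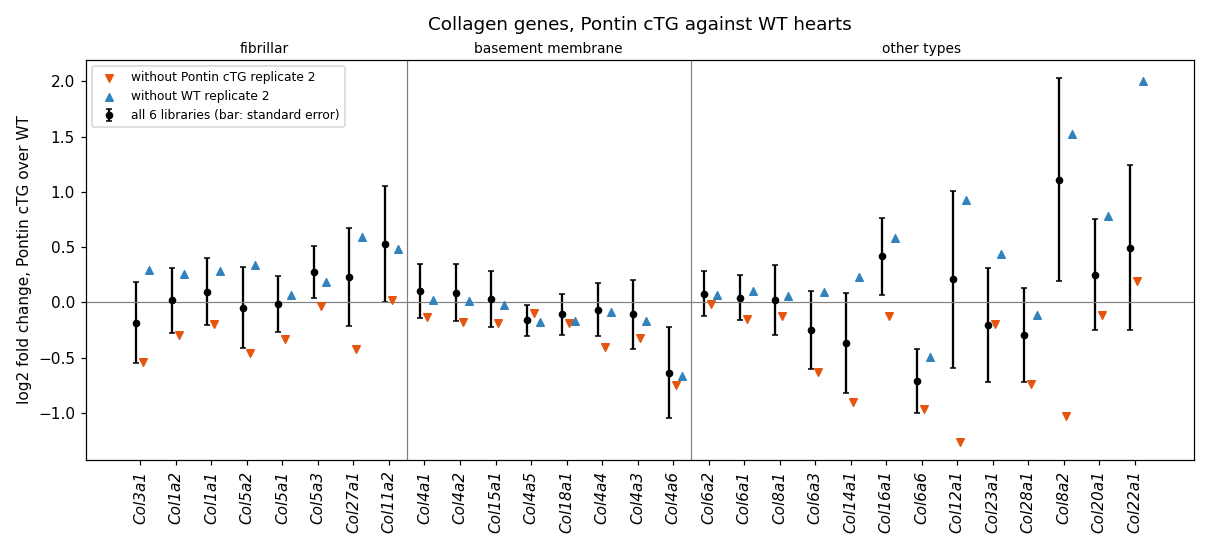
Log2 fold change (Pontin cTG over WT) of the 29 tested collagens, with bars for the standard error, beside the values without Pontin cTG replicate 2 (downward triangles) and without WT replicate 2 (upward triangles). With all 6 libraries 16 points lie above 0, and 27 of the 29 lie below 0 once Pontin cTG replicate 2 is left out.

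Leaving out 1 library at a time moved the collagens together. With all libraries the median log2 fold change of the tested collagens was 0.024. Without Pontin cTG replicate 2 it was -0.24, with 2 of 30 collagens above 0, and without Pontin cTG replicate 3 it was 0.28, with 24 of 31 above 0. For the fibrillar group it was 0.29 with WT replicate 2 left out (8 of 8 above 0) and -0.31 with Pontin cTG replicate 2 left out (1 of 8 above 0). Of the 29 collagens, 24 changed sign in at least 1 of the fits with a library left out, and the share over all genes was not counted. The 5 collagens that did not were *Col4a5*, *Col4a6*, *Col6a6* and *Col28a1*, all below 0, and *Col11a2*, above 0. In each of these fits 0 collagens passed an adjusted p of 0.05.

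Mice of 1 genotype differed from each other in many collagen genes at once. Pontin cTG replicate 2 was the highest of 6 libraries for 15 of 29 collagens (51.7%), against 30.2% of all genes tested, and for 6 of 8 fibrillar collagens. Its median fold over the mean of the other Pontin cTG hearts was 1.70 for collagens and 1.00 for all genes. Pontin cTG replicate 3 was the lowest of 6 for 21 of 29 collagens (72.4%), against 17.7% of all genes, and for 7 of 8 basement membrane collagens. Its median fold against Pontin cTG replicate 1 was 0.716 for collagens and 1.01 for all genes.

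WT replicate 2 differed from the other WT hearts by collagen group. It was the highest WT heart for 6 of 8 fibrillar and 11 of 13 other collagens but for 0 of 8 basement membrane collagens, against 38.7% of all genes tested. It was the lowest WT heart for 5 of 8 basement membrane collagens and for 1 of 8 fibrillar collagens, again against 38.7% of all genes. Its median fold over the mean of the other WT hearts was 1.47 for fibrillar, 2.54 for FACIT and 0.882 for basement membrane collagens. In Pontin cTG replicate 2 the medians of both sets were high, with a median fold over the other Pontin cTG hearts of 1.78 for fibrillar and 1.47 for basement membrane collagens. Not every basement membrane collagen was high there: it was the highest of 6 for 4 of 8, and the lowest of 6 for *Col4a5*. The spread was larger in the Pontin cTG group for most genes, collagen or not. The SD of the log2 values exceeded that in WT for 23 of 29 collagens (79.3%), near the 69.6% of all genes tested. For basement membrane collagens the median SD was 0.139 in WT and 0.503 in Pontin cTG hearts, on the log2 scale. Over all genes tested it was 0.165 in WT and 0.262 in Pontin cTG hearts.

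**Figure D4:**
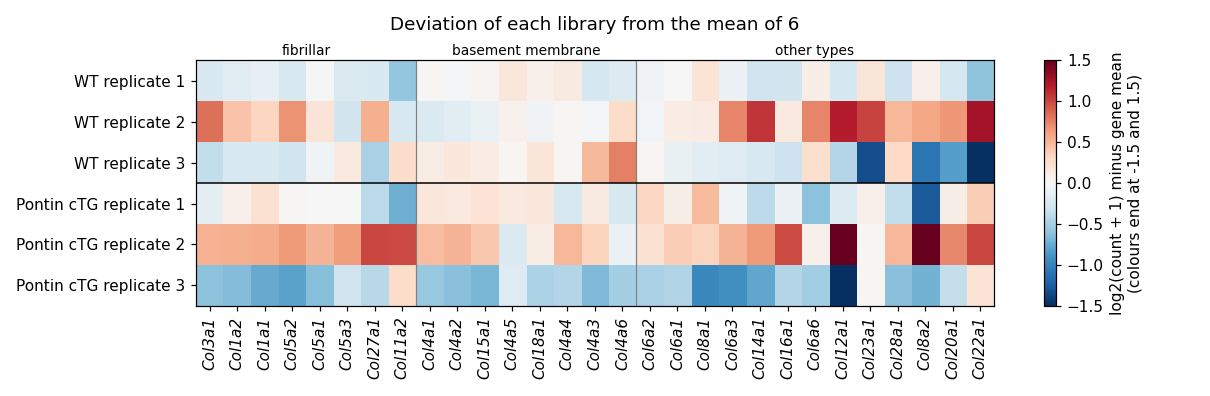
Heat map of each library's log2(normalised count + 1) minus the mean of the 6 libraries for the 29 tested collagens, with rows for libraries and columns for genes. Pontin cTG replicate 2 is the highest of 6 for 15 genes, Pontin cTG replicate 3 the lowest for 21, and the row of WT replicate 2 is above the other WT rows for 6 of 8 fibrillar and 0 of 8 basement membrane genes.

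Markers of cell types varied between the same hearts. Activated fibroblast markers (*Postn*, *Cthrc1*, *Fap*, *Meox1*, *Cilp*, *Comp* and *Thbs4*, of which 6 of 7 passed the filter) summed to 188, 292 and 148 CPM in WT and to 229, 634 and 93.0 in Pontin cTG hearts. The 6 hearts stood in the same order for this sum as for the share of fibrillar collagens. Summed resting fibroblast markers did not follow that order, at 1690, 1929 and 1544 in WT and 1678, 2035 and 1724 in Pontin cTG hearts. Pontin cTG replicate 3, the heart with the lowest fibrillar share, was above 3 of the other hearts. *Gsn* held the most counts of the 8 resting markers in every library. Its normalised counts were 13658.5, 13656.1 and 12693.4 in WT and 13983.1, 13252.0 and 14875.3 in Pontin cTG hearts. Replicate 3 of that group was lowest of 6 for 1 of the 8 (*Mfap5*), against 17.7% of all genes tested. It was also lowest for 5 of the 6 tested activated markers, and the other, *Fap*, was highest in WT replicate 3. Endothelial markers (6 of 6 tested) summed to between 918 and 970.3 CPM in WT and between 792 and 1302 in Pontin cTG hearts. Mural cell markers (7 of 7 tested) summed to between 1224 and 1319.99 CPM in WT and between 1105 and 1185 in Pontin cTG hearts. Of the valve and cartilage markers 2 of 4 passed the filter. The 4 summed to 10.7, 25.2 and 8.30 CPM in WT and to 8.30, 34.6 and 6.04 in Pontin cTG hearts, with replicate 2 highest in each group. Macrophage markers (5 of 5 tested) summed to 156, 265 and 164 in WT and 170.3, 185 and 113 in Pontin cTG hearts, with WT replicate 2 highest. *Nppa*, listed as an atrial marker and also made by stressed ventricle, had normalised counts of 1551, 858 and 1842 in WT and 1205, 7716 and 360.4 in Pontin cTG hearts, highest and lowest in the same hearts as the collagen share. Across the 13888 tested genes, Spearman's rho between a library's deviation from the gene's mean and gene length was 0.185, 0.177 and 0.110 in WT hearts, and 0.0838, -0.205 and -0.156 in Pontin cTG hearts, so that the collagen-rich and the collagen-poor Pontin cTG heart shared its sign. The part of these cell types and of this length trend in the collagen values was not tested.

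Ratios between chains within a library do not depend on its depth, and they were narrow for the main chain pairs of types IV, I and VI but not for those of types V and VIII. The ratio of *Col4a1* to *Col4a2* per kilobase was 1.33, 1.25 and 1.25 in WT and 1.31, 1.25 and 1.35 in Pontin cTG hearts, a range of 1.08-fold from lowest to highest, while *Col4a1* itself ranged 2.04-fold. The ratio of *Col1a1* to *Col1a2* was 1.71, 1.55 and 1.67 in WT and 1.86, 1.70 and 1.55 in Pontin cTG hearts, a 1.20-fold range, and *Col1a1* itself ranged 2.497-fold. The ratio of *Col6a1* to *Col6a2* ranged 1.29-fold. *Col3a1* to *Col1a1*, a ratio across fibril types, was 1.67, 2.54 and 1.62 in WT and 1.39, 1.75 and 1.97 in Pontin cTG hearts, a 1.83-fold range in which WT replicate 2 was highest. *Col5a1* to *Col5a2*, both chains of type V, ranged 1.65-fold with WT replicate 2 lowest at 0.843. *Col4a1* to *Col1a1*, a ratio of basement membrane to fibrillar chains, was 4.01, 2.51 and 4.59 in WT and 3.50, 3.40 and 4.16 in Pontin cTG hearts, with WT replicate 2 again lowest. *Col15a1* to *Col18a1* lay between 7.83 and 8.01 in WT and between 7.13 and 10.1 in Pontin cTG hearts, and *Col8a1* to *Col8a2*, both of type VIII, where *Col8a2* had 7 counts in some libraries, ranged 15.8-fold. The groups overlapped in each of the 8 ratios, with two-sided exact permutation p from 0.5 to 1 and Benjamini-Hochberg adjusted values of 1.

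**Figure D5:**
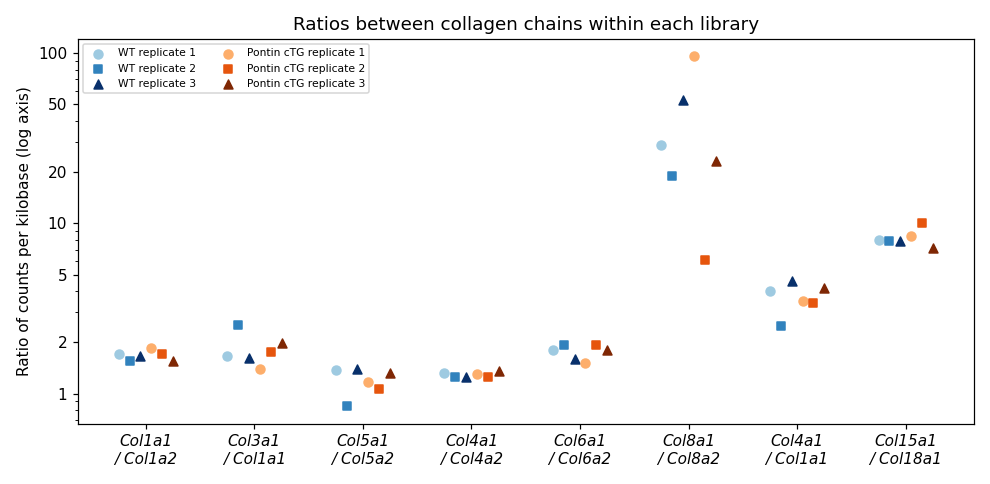
Ratio of counts per kilobase (log axis) for 8 pairs of collagen chains in each of the 6 libraries. The *Col4a1* to *Col4a2* points lie between 1.25 and 1.35, whereas the *Col8a1* to *Col8a2* points lie between 6.08 and 95.7.

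Genes that build, process and bind collagen showed no call either. Of 20 modifying enzymes and chaperones, 19 were tested, 0 passed an adjusted p of 0.05 in edgeR or an unadjusted p under 0.05, and 14 had fitted values above 0 (median log2 fold change 0.042). The smallest p belonged to *P3h4*, a member of the lysyl hydroxylase complex (0.22 ± 0.16), and *P4ha2*, a prolyl hydroxylase subunit (0.15 ± 0.13). *Serpinh1*, the collagen chaperone HSP47, had 3323, 3542 and 3594 in WT and 4425, 3795 and 3086 in Pontin cTG hearts. Of 14 processing and cross-linking genes, 12 were tested, 0 passed either threshold and 7 were above 0 (median 0.053, but -0.18 with Pontin cTG replicate 2 left out and 0.26 with replicate 3 of that group left out). The smallest p belonged to *Adamts3*, a procollagen N-proteinase (-0.36 ± 0.27), and *Bmp1*, the procollagen C-proteinase (0.32 ± 0.31, and -0.21 without Pontin cTG replicate 2). *Lox*, the lysyl oxidase that cross-links fibres, had 119, 322 and 129 in WT and 169, 354 and 84.0 in Pontin cTG hearts, high in the same pair of hearts as the fibrillar collagens. *Serpinh1* and *Lox* were chosen after their values were seen.

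Of 10 collagen receptors, 9 were tested, 0 passed either threshold, and 8 had fitted values below 0 (median -0.093, against 0.0013 over all genes). The smallest p belonged to *Ddr2*, a receptor tyrosine kinase for fibrillar collagen, with 482, 569.8 and 456 in WT and 394, 509.5 and 369 in Pontin cTG hearts (-0.24 ± 0.16), and to *Itga2* (-0.76 ± 0.56). *Gp6*, the platelet collagen receptor, was below the filter, with normalised counts of 5.51, 8.97 and 5.59 in WT and 0.976, 0.856 and 4.33 in Pontin cTG hearts. Its groups did not overlap, but these values stand for 1 to 8 counts per library.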

How the data were processed

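Hearts of 3 WT and 3 Pontin cTG mice gave 6 RNA-seq libraries. The authors deposited 1 table of counts per Ensembl gene, whole numbers without normalisation. How the counts were made is given differently in the sources: the submitters' processing notes name fastp, HISAT2, featureCounts, DESeq2 and GRCm39, while the methods of the study name Trimmomatic, STAR and mm10 with Gencode M25. The methods also state that an outlier was excluded without naming the experiment, while their statistics section reports no exclusion of data. For the RNA-seq of Pontin cTG and WT hearts the study gives 3 mice per group. Whether strand was used in counting is not given in the sources used here. Sample columns were assigned through the column names that the labels give. The table does not name its build, so positions were taken by Ensembl identifier from GENCODE M21 on GRCm38, and upstream sequences from RefSeq on GRCm38.p6. Of the 52073 genes shared with GENCODE M21, only 1472 had the same start and end in the deposited table. The positions printed here can therefore differ from those of the annotation used for counting.

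Genes were filtered with filterByExpr (minimum count 10), leaving 13888 of 56748, normalised by TMM and compared with the robust quasi-likelihood test of edgeR 4.0.16 in R 4.3.3 on genotype alone, and p-values were adjusted by Benjamini-Hochberg over all genes tested (threshold 0.05). The common BCV was 0.197. The SE of a log2 fold change was its absolute value over the square root of the F statistic. For normalised counts, library sizes were scaled by TMM and brought to their geometric mean. Shares and ratios were compared by two-sided exact permutation tests. Transcripts of the mitochondrial genome took 23.8% to 26.7% of the counts, and between libraries of the same group the chi-square per gene was at least 5.24, so each library was counted on its own. The labels number biological replicates, and p-values set the difference between the genotypes against the spread between these mice.

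Members and gene lists were chosen with earlier results of these data known. Values in every library are given for the main chains of types I, III, IV, V, VI, VIII, XII, XIV, XV and XVIII, for the 3 collagens with the smallest p in each direction, and for collagens whose groups do not overlap. Of the other lists, the 2 genes with the smallest p are named where none had an unadjusted p under 0.05. Lists are described by counts and medians, without a set test. Alternatives were DESeq2 1.42.0, limma-voom in limma 3.58.1 with sample weights, other normalisations, filters and gene sets, the replicate number as a block and each library left out in turn. The tests were tested on simulated data first. There edgeR called 60 of 100 changes of 2-fold and 93 of 100 of 4-fold, with 15 false calls, and DESeq2 made 28 false calls. The simulation gave each gene the same dispersion in both groups, unlike the larger spread of the Pontin cTG libraries.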

Additional observations from a re-analysis of the deposited data

How the results depend on the processing

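No collagen passed an adjusted p of 0.05 in edgeR (1 at an unadjusted p under 0.05) and none did under any alternative in which collagens were tested: DESeq2, DESeq2's size factors, library size alone, no filter, a minimum of 10 counts per library, a table of protein-coding genes, a table without mitochondrial genes, the replicate block, limma-voom with sample weights, and each library left out. Over these, the number at an unadjusted p under 0.05 was between 0 and 2, and the lowest adjusted p of a collagen was 0.855. The number of all genes at that unadjusted threshold ran from 122 without WT replicate 1 to 794 with limma-voom, against 285 in the main fit. The SE of the log2 fold change was largest for *Col8a2* (0.92), *Col12a1* (0.80) and *Col22a1* (0.75). Where a sign turned, the cause was not tested beyond the library or setting named.

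Libraries with the same number deviated from their groups with a correlation of 0.0772, 0.432 and 0.193 for numbers 1 to 3, and WT replicate 1 correlated best with Pontin cTG replicate 3 and WT replicate 3 with Pontin cTG replicate 1, so the replicate numbers were not taken to pair the mice. With the replicate number as a block, 0 collagens passed an adjusted p of 0.05, 2 (*Col6a6* and *Col14a1*) had an unadjusted p under 0.05, and the median log2 fold change was -0.063. Of the 13888 genes tested, 499 had an unadjusted p under 0.05 with the block, against 285 in the main fit. The block turned the fitted values of *Col1a2* to -0.029, *Col15a1* to -0.033, *Col8a1* to -0.084 and *Col12a1* to -0.099. For shares and ratios, exact sign flips over the 3 numbers cannot give a p under 0.25.

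With limma-voom the median of the collagens was -0.093, and these fitted values turned: *Col4a1* -0.066, *Col4a2* -0.090, *Col1a2* -0.023, *Col15a1* -0.11, *Col6a1* -0.040, *Col8a1* -0.081, *Col27a1* -0.093, *Col12a1* -0.56, *Col8a2* -0.66, *Bmp1* -0.022 and *Col23a1* 0.21. Library size alone turned *Col5a1* to 0.034. With the TMM-scaled library size as denominator, the difference in the share of other collagen types turned to -6.94e-05 percentage points.

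Leaving out 1 library at a time, the difference in shares (Pontin cTG minus WT) ran from -0.0412 to 0.0636 percentage points for all collagens, -0.0224 to 0.0185 for fibrillar, -0.0132 to 0.0371 for basement membrane and -0.00559 to 0.00881 for other types. The median log2 fold change ran from -0.074 to 0.13 for modifying enzymes and chaperones, from -0.18 to 0.26 for processing and cross-linking and from -0.33 to -0.061 for receptors, with all 3 lowest values without Pontin cTG replicate 2. The log2 difference in chain ratios ran from -0.017 to 0.11 for *Col1a1* to *Col1a2*, -0.29 to 0.038 for *Col3a1* to *Col1a1*, -0.23 to 0.13 for *Col5a1* to *Col5a2*, -0.11 to 0.074 for *Col6a1* to *Col6a2*, -1.37 to 0.62 for *Col8a1* to *Col8a2*, -0.22 to 0.21 for *Col4a1* to *Col1a1* and -0.028 to 0.22 for *Col15a1* to *Col18a1*. It stayed above 0 for *Col4a1* to *Col4a2*.

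The fitted log2 fold changes that turned ran, for the fibrillar group, from -0.20 to 0.39 for *Col1a1*, -0.29 to 0.28 for *Col1a2*, -0.54 to 0.29 for *Col3a1*, -0.33 to 0.23 for *Col5a1*, -0.46 to 0.34 for *Col5a2*, -0.034 to 0.46 for *Col5a3* and -0.42 to 0.59 for *Col27a1*. In the basement membrane group they ran from -0.13 to 0.35 for *Col4a1*, -0.18 to 0.35 for *Col4a2*, -0.32 to 0.15 for *Col4a3*, -0.40 to 0.11 for *Col4a4*, -0.18 to 0.29 for *Col15a1* and -0.22 to 0.071 for *Col18a1*. Among the other types they ran from -0.15 to 0.24 for *Col6a1*, -0.055 to 0.29 for *Col6a2*, -0.64 to 0.097 for *Col6a3*, -0.21 to 0.36 for *Col8a1*, -1.03 to 1.61 for *Col8a2*, -1.26 to 0.93 for *Col12a1*, -0.90 to 0.22 for *Col14a1*, -0.13 to 0.68 for *Col16a1*, -0.11 to 0.78 for *Col20a1*, -0.019 to 2.00 for *Col22a1* and -0.63 to 0.44 for *Col23a1*. For *Bmp1* they ran from -0.21 to 0.57.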
